A study of Mus musculus with 8 samples.

Results

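The sequences described here match transfer RNAs (tRNAs) and have a 3′ end in CCA, which is read here as reaching the tRNA's last base. They were taken as the distinct sequences of the deposited table that have a tRNA hit, no mouse miRNA hit and a last triplet CCA. There were 295 of them among 866 tRNA sequences and 11568 distinct sequences in all. Their lengths ran from 16 to 75 nucleotides, and their hits named 22 amino acid labels, of which Gly/Val and Phe/Ser joined different amino acids for 10 sequences. The hits of 57 sequences named more than 1 anticodon. In 2 sequences, a 43-nt Lys-CTT and a 36-nt Gly-CCC sequence, other listed tRNA sequences continued past the CCA, so their CCA lies inside the tRNA body and not at its end.

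A CCA triplet is added to every tRNA by a dedicated nucleotidyltransferase after the transcript is trimmed, and the amino acid is later attached to its final adenosine. In most mouse tRNA genes the triplet is not encoded, so a tRNA fragment with an unencoded CCA derives from a tRNA that had already been matured. Known 3′ tRNA fragments of this kind are cut in the T loop (short fragments) or in the anticodon loop (longer fragments), and both have been found in many tissues, some bound to Argonaute proteins.

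The libraries came from MIN6B1, a line derived from a mouse insulinoma and used as a model of pancreatic beta cells. Cells were transfected with a control (CTRL) plasmid or with a plasmid expressing the HENMT1ΔC-T6B methyltransferase, and total RNA was taken 24 to 72 hours later. T6B is an Argonaute-binding peptide and HENMT1 is an enzyme that methylates the 2′ hydroxyl of the last base of small RNAs, and the study asked which RNAs the fusion marks. RNA from each plasmid was sequenced without and with oxidation by sodium periodate, which destroys a free 2′,3′ diol at the RNA's end and so blocks ligation unless the 2′ position is methylated. That gave 4 groups of 2 libraries, all made from 5 ng of RNA with the QIAseq miRNA kit: control non-oxidized, control oxidized, methyltransferase non-oxidized and methyltransferase oxidized. All groups share the cell line and transfection with Lipofectamine, and untransfected cells were not removed by any step the labels give. The labels do not say whether replicates were separate cultures, so p-values measure only the spread between these libraries, which may be technical.

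The sequences below are shown because the counts turn on them. Each is read 5′ to 3′ as in the deposited table, with its CCA tail in capitals. The first 5 share 1 tRNA-Asp-GTC and differ only in where they begin, and the others lead their amino acid in abundance or in change.
Asp-GTC, 75 nt (seq7159): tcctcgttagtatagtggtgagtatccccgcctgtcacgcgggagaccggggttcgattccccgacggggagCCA
Asp-GTC, 41 nt (seq6725): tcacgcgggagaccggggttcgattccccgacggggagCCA
Asp-GTC, 40 nt (seq1537): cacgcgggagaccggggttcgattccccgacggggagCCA
Asp-GTC, 22 nt (seq7336): tcgattccccgacggggagCCA
Asp-GTC, 16 nt (seq1853): ccccgacggggagCCA
Ala-CGC/TGC, 18 nt (seq6928): tccccggcatctccaCCA
Gly/Val, 17 nt (seq376): accgggcggaaacaCCA
Gly-CCC, 17 nt (seq6951): tcccgggcggcgcaCCA
Trp, 17 nt (seq6747): tcacgtcggggtcaCCA
Arg-TCT, 18 nt (seq5482): gtcccggcggagtcgCCA
Pro, 22 nt (seq6612): tcaaatcccggacgagcccCCA

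The 22-nt tRNA-Asp fragment starts in the T arm, at base 54 of the 75, and the 41- and 40-nt fragments start inside the anticodon. Of the 43 members of 22 nucleotides, 41 began with TCGA or TCAA, the start of the Asp and of the Pro fragment shown. The deposited table gave no genomic match for 226 of the 295 members (76.6%), against 58 of the 571 tRNA sequences without CCA (10.2%). The other members matched the genome with their CCA, such as a 16-nt Phe/Ser fragment (seq2037) with 1114 matches and a 16-nt Lys-CTT fragment (seq1838) with 73. Whether these came from a tRNA end or from another place in the genome was not tested. RefSeq's gene table (assembly GRCm38.p6, not complete) names 16 tRNA-Asp-GTC genes, all of 72 bases, the length of the 75-nt sequence without its tail. The gene sequences were not compared. Fragments of this tRNA were thus not placed at 1 of these genes, and positions in the genome are not used here. The base before the last CCA was A in 139 members, G in 135, T in 15 and C in 6. At the end of a tRNA it is known as the discriminator base. The C members include the 43-nt Lys-CTT and the 36-nt Gly-CCC sequence, whose CCA is internal, so there the base is not a discriminator base.

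A sequence is listed if both oxidized methyltransferase libraries hold 2 or more counts of it and 10 or more together. The totals below are thus totals of listed sequences and not library depths. Listed counts ran from 3654639 to 6641250 in the 4 non-oxidized libraries and from 2446036 to 3100971 in the 2 oxidized methyltransferase libraries, but only 438363 and 295094 in the 2 oxidized control libraries. Among the markers, miR-375-3p (abundant in beta cells) had 559007 or more counts and miR-7a-5p (likewise) 314142 or more without oxidation and with the control plasmid, while miR-122-5p (liver) and miR-124-3p (neurons) had at most 888 and 515 in any library. The listed sequences held none of miR-451a, miR-142a-3p, miR-223-3p, miR-1a-3p and miR-133a-3p, markers of blood and muscle.

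CCA-ended fragments had more counts in both oxidized control libraries than in both non-oxidized ones, while the listed total was far lower. In the control libraries they held 22038 and 26538 counts without and 53142 and 36002 with oxidation, and 27798 and 31450 in non-oxidized and 35371 and 31655 in oxidized methyltransferase RNA. As a share of all listed counts this was 0.404% ± 0.00672 and 12.2% ± 0.0547 before and after oxidation of control RNA, and the methyltransferase libraries had 0.702% ± 0.0828 and 1.22% ± 0.109 (SD, n = 2 each). The oxidized control libraries stood above all the others, and in both plasmids the oxidized and non-oxidized libraries did not overlap. For every 100 counts of mature miRNA there were 386 and 356 CCA counts in oxidized control RNA, against 0.627 and 0.606 before oxidation, 1.24 and 1.03 in non-oxidized methyltransferase RNA and 1.73 and 1.93 in oxidized methyltransferase RNA. These are compositions: fewer counts of other RNA and more CCA fragments cannot be told apart in a share, nor can fewer cells of a kind and less RNA per cell in bulk samples.

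Within tRNA sequences, a share that does not depend on the miRNAs, the CCA-ended part was larger after oxidation with both plasmids. The control libraries had 15.9% and 15.5% of tRNA counts before and 44.6% and 44.0% after oxidation. With the methyltransferase it was 22.95% and 15.5% before and 48.4% and 35.8% after oxidation. The libraries before and after oxidation did not overlap with either plasmid, and the means were 15.7% ± 0.235 and 44.3% ± 0.418 with the control plasmid and 19.25% ± 5.24 and 42.1% ± 8.93 with the methyltransferase plasmid (SD, n = 2 each). The exact two-sided permutation test gave p = 0.33 for each plasmid (adjusted 0.667 over 4 comparisons), the smallest that 2 libraries against 2 allow. Between plasmids the libraries overlapped in oxidized RNA (difference -2.17 percentage points, exact permutation p = 1) and in non-oxidized RNA (3.54 points, p = 0.667). The 95% Wilson intervals of single libraries were narrow, from 15.4% to 15.7% in the second non-oxidized control library and from 35.5% to 36.1% in the second oxidized methyltransferase library, and cover counting error only.

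**Figure D1:**
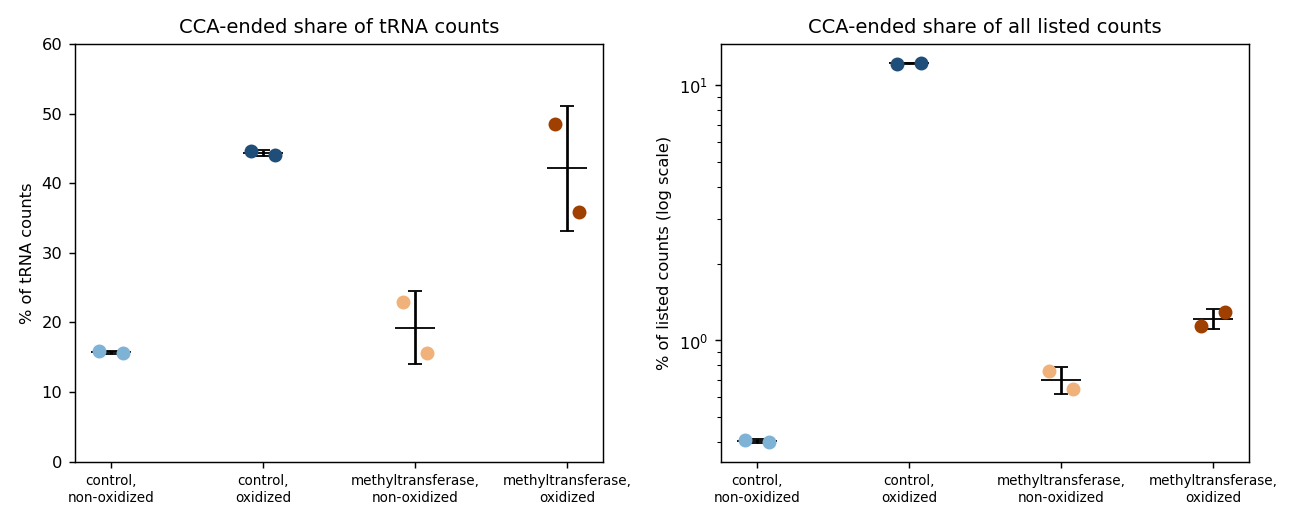
The share of CCA-ended fragments in each library (points), with group means and SD (black bars, n = 2), as a percent of tRNA counts on a linear axis (left) and of all listed counts on a log axis (right). Both oxidized groups lie above both non-oxidized groups on the left, while on the right the oxidized control libraries, at 12.1% and 12.2%, stand apart from all others.

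The lengths had 3 main groups: 110 members of 16 to 18 nucleotides, 67 of 19 to 24 nucleotides, 43 of them of 22, and 88 of 25 to 50 nucleotides. Another 30 were longer. With the control plasmid the shortest class held 45.6% ± 0.0905 of CCA counts before and 41.5% ± 4.48 after oxidation, and with the methyltransferase plasmid 44.1% ± 2.19 and 38.3% ± 3.64 (SD, n = 2 each). The class of 25 to 50 nucleotides, which includes the fragments cut at the anticodon, held 26.0% ± 2.49 and 38.8% ± 0.880 with the control plasmid and 37.2% ± 5.61 and 43.1% ± 2.09 with the methyltransferase plasmid (SD, n = 2 each). Its control libraries did not overlap between non-oxidized (24.2% and 27.8%) and oxidized RNA (39.5% and 38.2%), and the methyltransferase libraries came closer (33.2% and 41.1% before, 44.6% and 41.7% after). The class over 50 nucleotides held 3.51% and 6.26% in non-oxidized and 0.928% and 1.05% in oxidized control RNA. With the methyltransferase it held 4.53% and 4.67% before and 0.727% and 3.56% after oxidation, so it was lower in each oxidized library, but by little in the second. The 22-nt members held 24.7% and 18.1% of CCA counts in non-oxidized control RNA, 19.1% and 13.6% in oxidized control RNA, 14.5% and 9.87% in non-oxidized and 16.9% and 10.8% in oxidized methyltransferase RNA. In each group replicate 1 was well above replicate 2, and the non-oxidized control and methyltransferase libraries did not overlap.

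**Figure D2:**
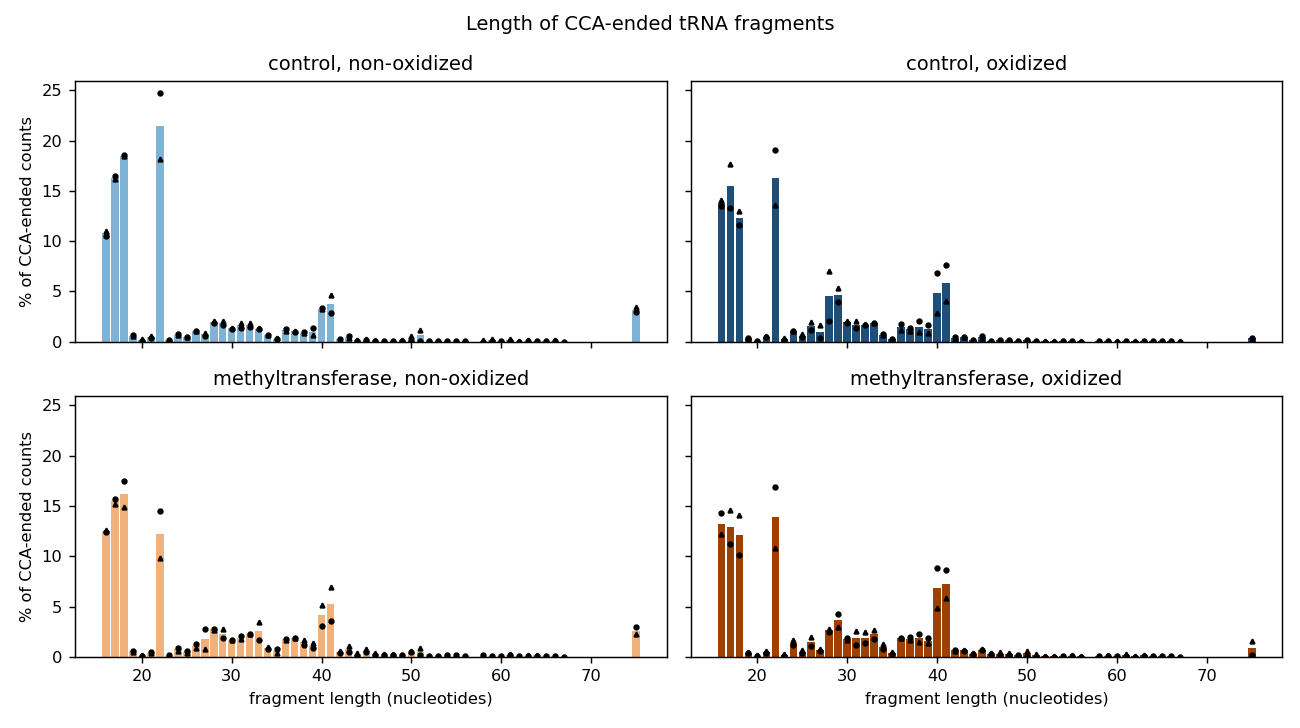
Percent of CCA-ended counts at each fragment length in nucleotides, by group. Bars are means of 2 libraries, circles replicate 1 and triangles replicate 2. The peaks at 16 to 18, 22, 28 to 29 and 40 to 41 nucleotides recur in the groups, with the 22-nt length at 24.7% and 18.1% in non-oxidized control RNA.

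The full-length tRNA-Asp with its tail (75 nucleotides) had 68 and 217 counts in non-oxidized and 45 and 19 in oxidized control RNA. With the methyltransferase it had 160 and 95 before and 16 and 123 after oxidation. It was lower in both oxidized libraries than in both non-oxidized ones with the control plasmid, and the methyltransferase libraries overlapped.

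Aspartate tRNA gave more of the CCA fragments than any other amino acid, with 91 members. With the control plasmid its share of CCA counts was 43.8% ± 1.20 before and 54.7% ± 3.92 after oxidation, and with the methyltransferase plasmid 45.7% ± 4.54 and 55.7% ± 5.39 (SD, n = 2 each), with no overlap between non-oxidized and oxidized libraries in either case. Tryptophan tRNA (13 members) followed it, from 3.62% ± 0.338 to 6.42% ± 0.536 with the control plasmid, and from 4.74% ± 0.382 to 5.94% ± 1.64 with the methyltransferase, where the libraries overlapped (SD, n = 2 each). Arginine tRNA (31 members) moved the other way, from 6.70% ± 0.939 to 2.65% ± 0.411 and from 4.38% ± 0.759 to 2.33% ± 0.0560 (SD, n = 2 each), without overlap. The shares of glutamate tRNA (29 members) were 3.36% ± 0.0814 and 0.984% ± 0.0910 with the control plasmid and 2.95% ± 0.422 and 1.61% ± 0.883 with the methyltransferase. Proline tRNA (4 members) went from 1.53% ± 0.768 to 0.323% ± 0.124 with the control plasmid and alanine tRNA (27 members) from 10.7% ± 0.725 to 6.30% ± 0.497, while with the methyltransferase both had overlapping libraries (SD, n = 2 each). Glycine (19 members) stayed between 7.59% and 9.02% in the 8 libraries, and Gly/Val (7 members) between 4.54% and 7.44%. By discriminator base, members with G before the tail include all of tRNA-Asp's main fragments. They held 56.6% ± 0.470 before and 62.6% ± 1.06 after oxidation of control RNA. Those with A held 39.4% ± 0.0357 and 35.3% ± 0.727 (SD, n = 2 each). With the methyltransferase, G members held 56.7% ± 4.51 and 62.4% ± 5.65. Those with A held 40.1% ± 4.63 and 35.1% ± 5.79 (SD, n = 2 each), and for both bases the libraries overlapped. In control RNA the Asp share rose by more than the G share, so G members outside tRNA-Asp held less after oxidation.

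The counts were concentrated in few sequences. The 5 most abundant members held between 20.9% and 30.6% of CCA counts in each library and the top 20 between 44.6% and 60.7%, while the median member had 16 to 31 counts. Replicates agreed across members with Pearson's r from 0.881 to 0.928 on log2(count + 1), a description across sequences that are not independent.

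Within tRNA-Asp-GTC, 51 of the 91 members, the 75-nt sequence included, were exact 3′ stretches of it, so they can be placed by their first base, with the anticodon at bases 34 to 36. The fragment from base 54, the 22-nt T-loop product, had 3628 and 2936 counts in non-oxidized control, 6313 and 3169 in oxidized control, 1708 and 1361 in non-oxidized methyltransferase and 3392 and 1575 in oxidized methyltransferase RNA. It was the highest CCA sequence in each library but the second non-oxidized and the second oxidized methyltransferase libraries, where the 41-nt fragment from base 35 was higher. That 41-nt fragment had 570 and 1149, 3537 and 1278, 907 and 2031, and 2768 and 1635 counts in the same order, and the 40-nt fragment from base 36 had 679 and 774, 3431 and 963, 787 and 1526, and 2898 and 1382. With the control plasmid both fragments had more counts in both oxidized libraries, by little in the second, and with the methyltransferase the oxidation states overlapped. These are unscaled counts of libraries of unequal size.

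Members that began in the anticodon loop (bases 32 to 38, 7 members) held 20.3% and 21.5% of these Asp counts in non-oxidized and 32.5% and 17.8% in oxidized control RNA, and 21.6% and 34.0% in non-oxidized and 37.8% and 27.5% in oxidized methyltransferase RNA. Those that began in the last 24 bases (9 members) held 45.3% and 32.8%, 32.7% and 27.8%, 20.5% and 13.6%, and 26.7% and 18.9% in the same order. So the T-loop end was high in control RNA and lower with the methyltransferase, whether oxidized or not, with no overlap between plasmids in either state. Those that began between the anticodon loop and the last 24 bases (13 members) held 31.5% and 34.7%, 31.8% and 51.3%, 49.6% and 42.3%, and 32.3% and 44.2%, with wide spread between replicates.

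**Figure D3:**
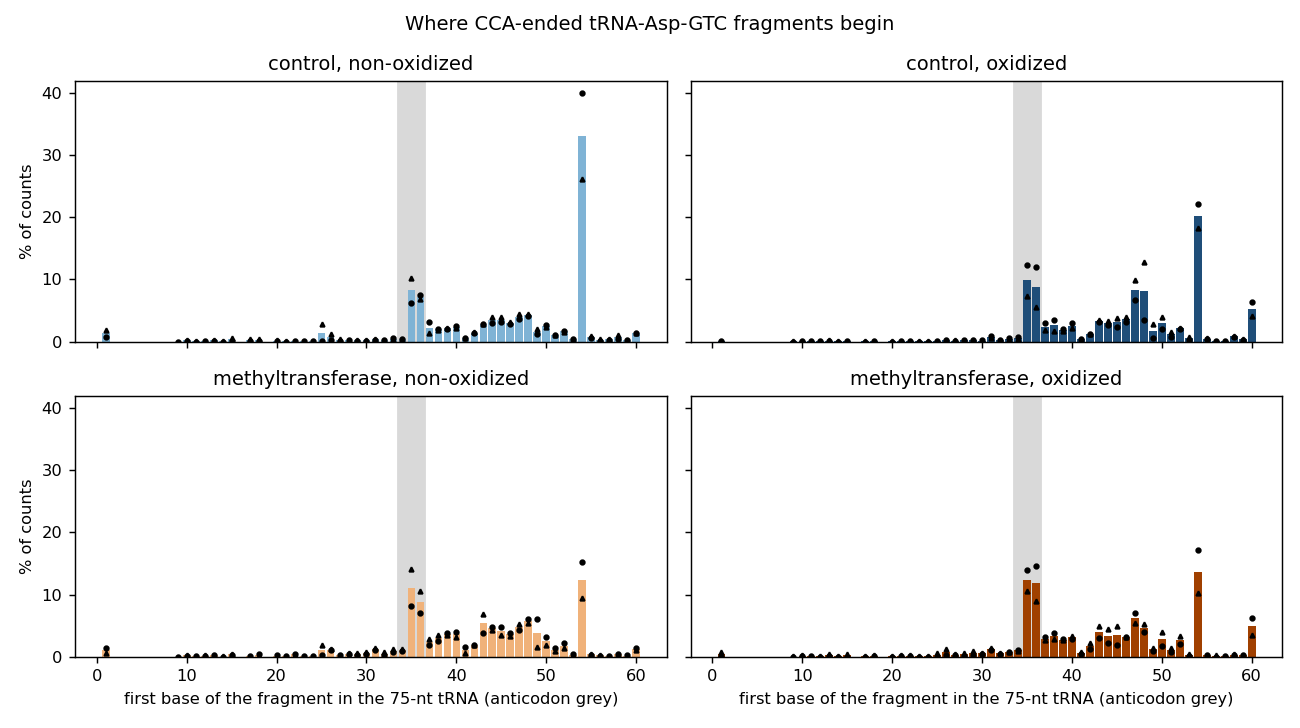
Where the 51 CCA-ended members that match the 75-nt tRNA-Asp-GTC begin: the first base of the fragment (x axis, counted from the tRNA's first base) against the percent of their counts (y axis), by group. Bars are means of 2 libraries, circles replicate 1, triangles replicate 2 and the grey band the anticodon. Base 54 is the highest bar in each group, and base 60 is higher in both oxidized groups than before oxidation.

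At the far end of this tRNA, 1 fragment was called higher in each alternative tried for the control plasmid. The 16-nt fragment from base 60 had 128 and 153 counts in non-oxidized control, 1841 and 725 in oxidized control, 157 and 166 in non-oxidized methyltransferase and 1252 and 538 in oxidized methyltransferase RNA. All 4 oxidized libraries were above all 4 non-oxidized ones. Its log2 fold change with oxidation was 2.73 ± 0.46 with the control plasmid (SE, edgeR quasi-likelihood test, Benjamini-Hochberg adjusted p = 0.00029) and 2.16 ± 0.45 with the methyltransferase (adjusted p = 0.00749). The second value missed the threshold without the first non-oxidized (adjusted p = 0.0522), the second non-oxidized (0.0685) or the first oxidized methyltransferase library (0.0694). Its share of the placed Asp counts was 1.41% and 1.36% before and 6.43% and 4.17% after oxidation with the control plasmid, and 1.40% and 1.15% before and 6.31% and 3.50% after with the methyltransferase.

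Beside the full CCA, some fragments of the same first base were also listed with a shorter tail. The 38-nt tRNA-Asp fragment from base 38 had all 4 forms, shown here with the tail bases in capitals.
CCA (seq2903): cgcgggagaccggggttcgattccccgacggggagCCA
CC (seq2902): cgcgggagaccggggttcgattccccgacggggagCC
C (seq2901): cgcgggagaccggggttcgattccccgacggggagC
no tail base (seq2900): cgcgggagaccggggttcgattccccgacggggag
The form without a tail base made up 51.5% and 38.2% of its own counts plus those of the CCA form in non-oxidized control RNA, 0.393% and 1.61% in oxidized control RNA, 48.5% and 37.0% in non-oxidized methyltransferase RNA and 1.17% and 0.924% in oxidized methyltransferase RNA. The form ending CC made up 30.7% and 15.0%, 1.17% and 0.649%, 29.0% and 15.6%, and 4.87% and 5.71% against its CCA form in the same order. In each of these forms all 4 oxidized libraries were below all 4 non-oxidized ones.

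Summed over the 25 members that had a listed CC form, CC made up 6.12% ± 1.08 of the CC and CCA counts before and 1.46% ± 0.303 after oxidation of control RNA, and the methyltransferase libraries had 6.06% ± 0.691 and 1.705% ± 0.112 (SD, n = 2 each). With the control plasmid the share was lower in both oxidized libraries than in both non-oxidized ones for 22 of the 25 members. With the methyltransferase this held for 20, and 2 went the other way. Of the 25 members, 16 are nested stretches of the same tRNA-Asp, so these counts are not of independent sequences. The exact two-sided permutation test gave p = 0.33 for each plasmid, the smallest the design allows (adjusted 0.4 over 6 comparisons). The 22-nt Asp fragment differed little, with 1.73% and 2.00% before and 1.65% and 1.49% after oxidation in control RNA, while the 17-nt Gly/Val fragment had 17.0% and 16.02% before and 1.29% and 2.07% after. Between plasmids in oxidized RNA the summed CC shares overlapped (difference 0.244 percentage points, exact permutation p = 0.667).

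The forms ending in a single C, all 22 of them from tRNA-Asp, held 7.08% and 4.30% of the C and CCA counts in non-oxidized control, 0.838% and 0.909% in oxidized control, 10.004% and 7.17% in non-oxidized methyltransferase and 2.84% and 3.33% in oxidized methyltransferase RNA. Here the oxidized methyltransferase libraries were both above the oxidized control libraries, by 2.21 percentage points (exact permutation p = 0.33, adjusted 0.4), and both below the non-oxidized ones. These shares compare forms within a library and so do not depend on the scaling of libraries. All listed short forms had at least 2 counts in each oxidized methyltransferase library, as the listing requires. The forms were thus selected on the group that lay higher in the comparison of plasmids, so that comparison is not an even one.

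**Figure D4:**
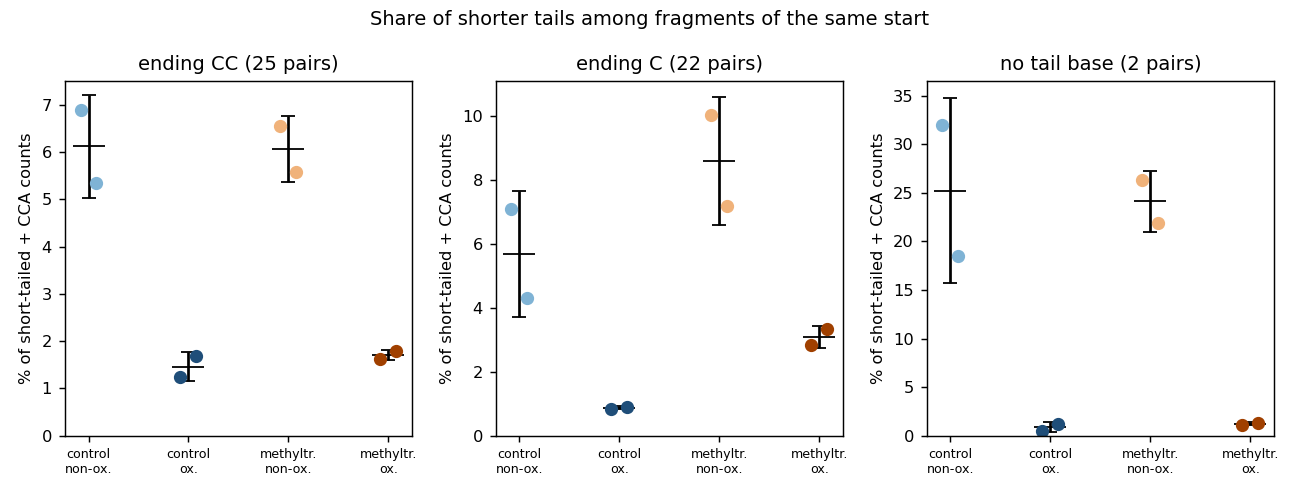
Share of short-tailed counts in the sum of short-tailed and CCA counts (y axis, percent), for forms ending CC (25 pairs), C (22 pairs) or with no tail base (2 pairs) in each group. Points are libraries, black bars the mean and SD (n = 2). Oxidized libraries are below non-oxidized ones in every panel and with both plasmids.

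The main comparison of the study, methyltransferase against control plasmid in oxidized RNA, asks which RNAs the enzyme protected. Fold changes come from 1 edgeR model over all listed sequences with TMM scaling, and sequences with a Benjamini-Hochberg adjusted p below 0.05 are called. Of 285 CCA members that passed the filter on low counts, 2 were called higher (0.702%, against 42.3% of all sequences tested) and 5 lower (1.75%, against 3.92%). The median log2 fold change was -0.18 over the members, -0.13 over 562 tRNA sequences without CCA (30 higher, 23 lower), 6.49 over 607 mature miRNA sequences (518 higher, 1 lower) and 0.82 over all. The split among the members depended on the scaling. With DESeq2 size factors 3 were higher and 1 lower, with tRNA totals 3 and 1, and with the DESeq2 Wald test 8 and 0. Total counts, which moved the median of all sequences from 0.82 to -2.17, gave 1 and 251. The calls among all sequences under these settings are not given here. Whether a shift was particular to the members thus cannot be read from these counts. Without the first oxidized methyltransferase library 5 were higher and 0 lower, without the second 3 and 1, without the first oxidized control library 3 and 14, and without the second 5 and 2. Without 1 of the non-oxidized libraries 4 or 5 were higher and 4 or 6 lower.

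**Figure D5:**
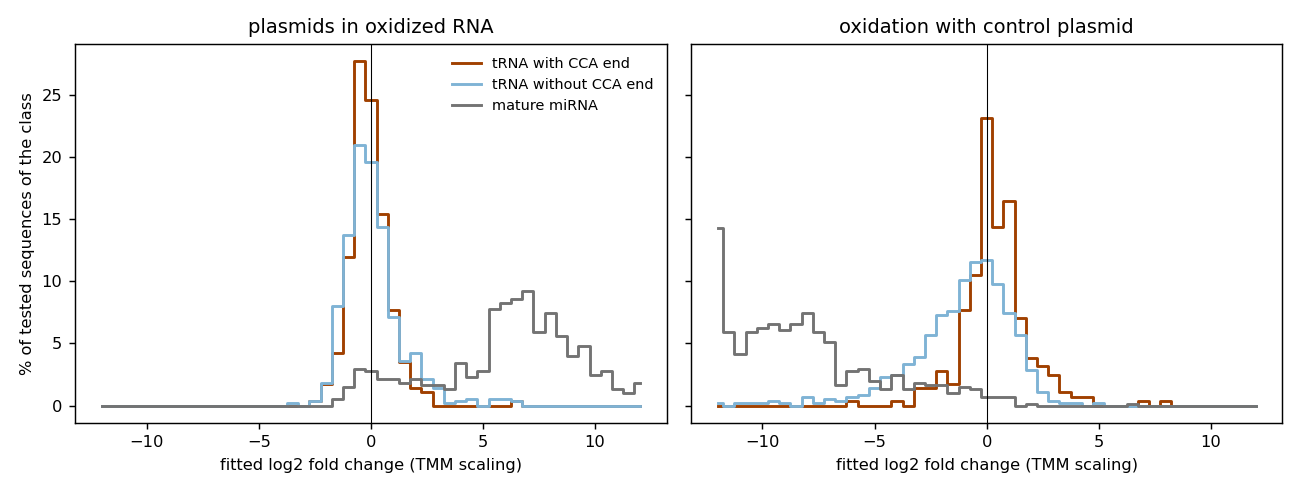
Distribution of fitted log2 fold changes (x axis, bins of 0.5 with the ends pooled, TMM scaling) as a percent of the tested sequences of each class (y axis), for the plasmids in oxidized RNA (left) and for oxidation with the control plasmid (right). On the left CCA-ended and other tRNA sequences lie around 0 (medians -0.18 and -0.13) while miRNAs lie far to the right, and on the right the CCA-ended sequences (median 0.29) lie to the right of the other tRNA sequences (median -0.71).

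The 2 higher members were a 22-nt proline and a 16-nt alanine fragment. The Pro fragment, the T-loop product of its tRNA, had 46 and 31 counts in non-oxidized control, 16 and 17 in oxidized control, 41 and 41 in non-oxidized methyltransferase and 70 and 29 in oxidized methyltransferase RNA. Both oxidized methyltransferase libraries were above both oxidized control libraries, and the change was 1.59 ± 0.55 on the log2 scale (SE, edgeR quasi-likelihood test, adjusted p = 0.0323). It turned to -1.43 with total counts and missed the threshold without the first oxidized methyltransferase (adjusted p = 0.216) or the first oxidized control library (0.155). The Ala-AGC fragment (seq1895) was at 0 in both oxidized control libraries and at 12 in each oxidized methyltransferase library, at least 4.20-fold higher with TMM scaling and the control libraries set to 3 counts each. With total counts the same ratio was 0.516, so no bound holds there. Before oxidation it had 4 and 9 counts with the control plasmid and 13 and 17 with the methyltransferase. A sequence this rare is listed only through its counts in the oxidized methyltransferase libraries, the group in which it was called higher.

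Of the 5 lower members, 3 came from tRNA-Asp. The 18-nt Asp fragment (seq10892) had 230 and 168 counts in oxidized control and 67 and 59 in oxidized methyltransferase RNA, or -1.55 ± 0.53 on the log2 scale (SE, edgeR adjusted p = 0.0314). Its libraries did not overlap there or after TMM scaling. It had 38 and 126 counts before oxidation with the control plasmid, and 44 and 55 with the methyltransferase. The 21-nt Asp fragment (seq2580) had 106 and 107 against 49 and 34 counts (-1.31 ± 0.50, SE, edgeR adjusted p = 0.0494). The 22-nt Asp variant seq1991 had 79 and 37 against 17 and 13 counts (-1.80 ± 0.55, SE, edgeR adjusted p = 0.018). Outside tRNA-Asp, the 17-nt Val fragment seq382 had 35 and 25 against 4 and 6 counts (-2.43 ± 0.69, SE, edgeR adjusted p = 0.0116), and the 18-nt Arg-TCG fragment seq5489 had 20 and 25 against 6 and 6 (-1.84 ± 0.60, SE, edgeR adjusted p = 0.0248). All 5 had no overlap between the plasmids in oxidized RNA. Each missed the threshold without the first (adjusted p from 0.0693 to 0.12) or without the second oxidized methyltransferase library (0.0519 to 0.38, the Val and the 21-nt Asp fragment). With tRNA totals only the Val fragment of these 5 kept its call (adjusted p = 0.0272).

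The 5 most abundant members gave no call in this comparison. The 22-nt Asp fragment had a change of -0.83 ± 0.40 on the log2 scale (SE, edgeR adjusted p = 0.121, 95% interval -1.71 to 0.05), and the 17-nt Gly/Val fragment, with 1610 and 1325 against 624 and 1076 counts, -0.65 ± 0.42 (adjusted p = 0.247, -1.56 to 0.26). With total counts both were called lower. The 41- and 40-nt Asp fragments had 0.03 ± 0.49 (-1.04 to 1.10) and 0.13 ± 0.48 (-0.93 to 1.19), and the 18-nt Ala fragment, with 1382 and 991 against 1025 and 1196 counts, 0.03 ± 0.37 (-0.79 to 0.85). These last 3 values changed sign under other settings, and all 5 intervals span changes of either direction. A miss of the threshold does not show that levels were the same.

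Before oxidation, no member was called between the plasmids (0 higher and 0 lower of 285, against 0% and 0% of all sequences, edgeR quasi-likelihood test with Benjamini-Hochberg adjustment). At an unadjusted p under 0.05 there were 23 members (8.07%, against 8.71% of all sequences tested), the DESeq2 Wald test called 0 as well, and the median log2 fold change was 0.36, against -0.09 for other tRNA sequences and 0.05 for all. The members of 25 to 50 nucleotides had a median of 0.93, with 15 of 83 at an unadjusted p under 0.05 (18.1%), and the shortest class had 0.24, with 2 of 110 (1.82%). The 22-nt Asp fragment was lower in both non-oxidized methyltransferase libraries (1708 and 1361 counts) than in both control libraries (3628 and 2936), but the change of -1.11 ± 0.40 on the log2 scale missed the threshold (SE, edgeR adjusted p = 0.447).

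Oxidation of control RNA asks what is lost where no enzyme was supplied. Of the 285 members, 38 were called higher (13.3%, against 18.4% of all sequences) and 16 lower (5.61%, against 46.4%), with a median log2 fold change of 0.29 against -0.71 for other tRNA sequences (31 higher and 175 lower of 562), -8.69 for mature miRNAs and -1.14 for all. The comparison shares its oxidized control libraries with the one above. The higher calls outnumbered the lower ones with TMM, total counts (272 and 0, median of all sequences 3.20) and tRNA totals (113 and 4), but not with DESeq2 size factors (19 and 22) or the DESeq2 Wald test (13 and 23). Without the first non-oxidized control library 10 were higher, without the second 19 higher and 9 lower, without the first oxidized control library 8 lower, and without the second oxidized methyltransferase library 23 higher.

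By length, the higher calls were 12 of 110 tested members of 16 to 18 nucleotides (10.9%) and 7 of 65 of 19 to 24 (10.8%). They were 19 of 83 of 25 to 50 (22.9%) and 0 of 27 longer ones, against 18.4% of all sequences. The lower calls were 10 (9.09%), 2 (3.08%), 0 and 4 (14.8%) in the same order, against 46.4% of all sequences. By amino acid, 21 of 90 tested Asp members were higher (23.3%) and 2 lower (2.22%). Of 12 Trp members 6 were higher (50%) and 0 lower, and 3 of 7 Gly/Val members were higher (42.9%). No Arg member was higher and 6 of 30 were lower (20%), and 3 of 4 Pro members were lower (75%). Many Asp members are nested stretches of 1 tRNA, so these counts are not of independent sequences. Among members with a mean of 50 or more counts, the largest increases after that of the 16-nt fragment were those of a 29- and a 28-nt Asp fragment that each differ by 1 base from a more abundant member. The first, seq2020, had 19 and 44 counts before and 154 and 146 after oxidation (1.91 ± 0.57, SE, edgeR adjusted p = 0.0113). The second, seq3013, had 38 and 37 before and 83 and 257 after (1.961 ± 0.65, SE, adjusted p = 0.0194), and missed the threshold without the first (0.0805) or second non-oxidized control library (0.0923) as well. Without the second oxidized control library seq3013 was at 0.50 (adjusted p = 0.454), and without the first non-oxidized control library seq2020 was at 1.41 (0.116).

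The full-length Asp-GTC sequence was called lower with TMM scaling, a direction that turned with total counts. Its counts are given above, and the change was -2.57 ± 0.89 on the log2 scale (SE, edgeR adjusted p = 0.0246). It was 1.89 with total counts and missed the threshold without either oxidized control library or the second non-oxidized one (adjusted p 0.0547, 0.101 and 0.195). A 51-nt Asp fragment (seq6923) had 15 and 313 before and 13 and 11 after oxidation (-4.10 ± 1.42, SE, edgeR adjusted p = 0.0246); its call rests on the second non-oxidized control library, without which it was -0.73 (adjusted p = 0.666). It also missed the threshold without either oxidized control library (0.0971 and 0.0741), and with total counts it was 0.41. Its counts in the methyltransferase libraries were as uneven, with 40 and 282 before and 8 and 85 after oxidation.

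With the methyltransferase, oxidation called 2 members higher (0.702%, against 1.77% of all sequences) and 4 lower (1.40%, against 11.2%). The median was -0.18, against -0.74 for other tRNA sequences (6 higher and 116 lower of 562), -1.39 for mature miRNAs and 0.09 for all. With total counts (median of all 0.95) 14 were higher and 0 lower, and with tRNA totals (1.28) 29 and 0. The counts with DESeq2 size factors (2 and 2) and the Wald test (2 and 6) were also small. Beside the 16-nt Asp fragment, a 41-nt Glu-TTC fragment (seq6687) was higher, with 4 and 8 counts before and 37 and 45 after oxidation (2.53 ± 0.64, SE, edgeR adjusted p = 0.0223). In control RNA the same fragment had 6 and 2 counts before and 56 and 41 after. The lower members were 3 Arg fragments of 18 nucleotides and a 16-nt Pro fragment.

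The most abundant of these, the 18-nt Arg-TCT fragment, had 249 and 261 counts before and 139 and 110 after oxidation with the methyltransferase, and 406 and 454 before and 217 and 189 after with the control plasmid. All 4 oxidized libraries were below the non-oxidized ones, and the change was -1.30 ± 0.38 on the log2 scale (SE, edgeR quasi-likelihood test, adjusted p = 0.0423) and -1.44 with the control plasmid (adjusted p = 0.0054). The first of these was -0.09 with tRNA totals (adjusted p = 0.906). The second was not tried under other settings, and with total counts no member was called lower in that comparison. The Arg-ACG fragment seq3211 had 41 and 46 before and 8 and 12 after (adjusted p = 0.0299), the Arg-TCG fragment seq5489 19 and 24 before and 6 and 6 after (0.0446), and the Pro fragment seq1901 26 and 60 before and 11 and 9 after (0.0333). Leaving out 1 library ended each of the 6 calls in at least 1 case, and without the second non-oxidized methyltransferase library 0 were higher and 0 lower.

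The difference between the oxidation effects, the interaction of plasmid and oxidation, called 1 member higher (0.351%, against 39.6% of all sequences) and 5 lower (1.75%, against 3%), with a median of -0.62 against -0.02 for other tRNA sequences, 7.19 for mature miRNAs and 0.96 for all. With total counts 0 were higher and 245 lower, and without the first oxidized control library 1 and 8.

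The most abundant members of Lys, Val-TAC, Asn, Ile, Leu, Phe/Ser, Tyr, Pro, Gln, Cys, Met and SeC had 23 to 794 counts in each library, and those of Phe, initiator Met and His 0 to 37. In oxidized control RNA, 10 and 17 of the 295 members had no count in the first and second library, and 62 and 93 had fewer than 10. A member at 0 there may hold up to 0.000684% and 0.00102% of the listed counts (3 counts of the total).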

How the data were processed

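Small RNA libraries of 8 samples in 4 groups were analysed from 1 deposited table. The authors deposited whole-number read counts per sequence with hit names and genomic matches, and the listing keeps sequences found in both oxidized methyltransferase libraries. The aligner, the handling of molecular identifiers and the genome build of these counts are not given in the sources used here. Lines were merged to 11568 distinct sequences. The table's 16 further columns of normalized or transformed values per sample were not used.

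Counts of all sequences were fitted in 1 model of 4 groups with edgeR 4.0.16 in R 4.3.3. The fit used TMM scaling, filterByExpr, the quasi-likelihood test and Benjamini-Hochberg adjustment over the 9851 sequences tested. A check on simulated data gave all groups 1 shared profile, with some sequences raised in oxidized methyltransferase RNA. It thus did not cover the shift in composition of the oxidized control libraries. Standard errors are the fold change over the square root of the F statistic, and intervals use the test's own degrees of freedom. Shares were tested with exact permutation tests in scipy 1.17.1. Alternatives were DESeq2 1.42.0, other scalings, no filter, the replicate block and leaving out each library. The main model did not pair the samples by replicate number, and the labels do not say whether these numbers pair them.

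The text names the most abundant member of each amino acid (1 such sequence is not reported here) and, for each comparison, up to 3 called members per direction with a mean of at least 50 counts and the largest change. Other called members were named after their values were seen, as were the tail forms. Members and lists were chosen with earlier results of these data known.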

Additional observations from a re-analysis of the deposited data

Results flagged for a closer look

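For 6 members the oxidation effect differed between the plasmids, by the interaction term of the edgeR quasi-likelihood fit (Benjamini-Hochberg adjusted over all sequences). All values are log2 differences, methyltransferase minus control plasmid. In 5 of the 6 the sequence is 1 substitution away from a more abundant member, and the substituted base is in capitals here (positions from 1 at the 5′ end, the more abundant member's base first). The sixth is shown with its CCA tail in capitals.
Asp-GTC, 41 nt (seq1805, T1C): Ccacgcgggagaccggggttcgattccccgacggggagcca
Trp, 17 nt (seq1810, T1C): Ccacgtcggggtcacca
Asp-GTC, 22 nt (seq1991, T1C): Ccgattccccgacggggagcca
Val, 17 nt (seq382, A10G): accgggcggGaacacca
Ala-AGC, 16 nt (seq1895, C8T): cccgcatTctccacca
Gly/Val, 16 nt (seq2008): ccgggcggaaacaCCA

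The 16-nt Gly/Val fragment had 278 and 295 counts before and 993 and 597 after oxidation with the control plasmid, and 539 and 521 before and 548 and 377 after with the methyltransferase. The difference was -1.54 ± 0.50 (SE, edgeR adjusted p = 0.0268). The Val fragment seq382 had 2 and 4 before and 35 and 25 after with the control plasmid, and 5 and 4 before and 4 and 6 after with the methyltransferase, a difference of -2.98 (adjusted p = 0.041). The Asp variant seq1991 had 3 and 4 before and 79 and 37 after, against 7 and 4 and then 17 and 13, a difference of -2.42 (adjusted p = 0.0488). With the control plasmid all 3 had more counts in both oxidized libraries. With the methyltransferase seq1991 did as well, while for the Gly/Val and Val fragments the libraries before and after oxidation overlapped.

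The variants seq1805 and seq1810 were at 0 in both non-oxidized control libraries. After oxidation they had 57 and 15, and 18 and 19 counts, which put seq1805 at least 8.46-fold higher and seq1810 at least 4.89-fold higher (TMM scaling, 3 counts set per library). With the methyltransferase they had 2 and 6 before and 20 and 9 after, and 2 and 3 before and 9 and 8 after. The fitted differences of -6.32 and -5.59 depend on the prior count and are no bounds. The Ala fragment seq1895 had 4 and 9 counts before and 0 after oxidation with the control plasmid, at least 2.72-fold lower with TMM scaling but with no bound with total counts (ratio 0.123), and 13 and 17 before and 12 and 12 after with the methyltransferase, with a fitted difference of 5.34 that is no bound either. For the Val fragment each fit that left out 1 library missed the threshold (adjusted p from 0.0591 to 0.135), and for seq1991 each but the one without the second non-oxidized methyltransferase library did (0.0516 to 0.231). Leaving out 1 library also ended the call in 6 of 8 fits for seq2008 (adjusted p up to 0.182), 4 for seq1805 (up to 0.0636), 6 for seq1810 (up to 0.0747) and 2 for seq1895 (up to 0.0673). With DESeq2 size factors (0.227) or tRNA totals (0.181) seq2008 missed the threshold, as did seq1991 (0.129) and seq382 (0.0755) with tRNA totals. The listing requires counts in the oxidized methyltransferase libraries, so a rare member such as seq1895 is listed only through that group. The cause of these differences was not tested.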

How the results depend on the processing

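Counts of called CCA members depended on the scaling, and the cause was not tested. Shares of all sequences called under the alternatives are not given, here or above. The counts thus do not show whether a shift was particular to the members. For the plasmids in oxidized RNA, 1 was higher with total counts, 8 with the DESeq2 Wald test and 7 with no filter, and 1 was lower with DESeq2 size factors, 251 with total counts, 1 with tRNA totals and 0 with the Wald test. For oxidation with the control plasmid, 19 were higher with DESeq2 size factors, 272 with total counts, 113 with tRNA totals and 13 with the Wald test, and 0 and 4 were lower with total counts and tRNA totals. For oxidation with the methyltransferase, 14 and 29 were higher with total counts and tRNA totals, and 2, 0 and 0 were lower with size factors, total counts and tRNA totals. For the interaction, 0 were higher with total counts and 2 with no filter, and 2, 245, 2 and 1 were lower with size factors, total counts, tRNA totals and the Wald test. Leaving out 1 library gave 3 to 5 higher and 0 to 14 lower for the plasmids in oxidized RNA, 10 to 37 and 8 to 20 for oxidation with the control plasmid, 0 to 2 and 0 to 5 with the methyltransferase, 0 to 3 and 1 to 8 for the interaction, and 0 of either for the plasmids in non-oxidized RNA. Correlations of replicate deviations between groups ran from -0.0925 to 0.280 over 1193 sequences, which does not exclude pairing by replicate number. The 22-nt share of CCA counts was higher in replicate 1 than in replicate 2 of every group. With the replicate block 7 members were lower after oxidation with the methyltransferase, and the interaction of seq1991 was -2.37 (edgeR quasi-likelihood test, adjusted p = 0.0557).

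The CCA share of tRNA counts was 17.7% and 45.3% in non-oxidized and oxidized control RNA when sequences under 10 counts in any library were left out, and 15.3% and 45.7% without sequences of more than 1 anticodon. Single libraries spanned 15.5% to 15.9%, 44.0% to 44.6%, 15.5% to 22.95% and 35.8% to 48.4% in control non-oxidized, control oxidized, methyltransferase non-oxidized and methyltransferase oxidized RNA. The CC share, in alternatives chosen after seeing the data, was 1.14% in oxidized control and 6.75% in non-oxidized methyltransferase RNA for tRNA-Asp pairs alone, and 2.19%, 4.76% and, in oxidized methyltransferase RNA, 1.54% for the others. Single libraries spanned 5.35% to 6.88%, 1.25% to 1.68%, 5.57% to 6.55% and 1.63% to 1.78% in the same order of groups.

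Among the fold changes put through the alternatives, total counts reversed the sign of 3 called values, to -1.43 (seq6612), 0.41 (seq6923) and 1.89 (seq7159). They also reversed 3 values without a call in oxidized RNA, to -2.99 (seq6725), -2.88 (seq1537) and -2.99 (seq6928). The control-plasmid value of seq5482 was not put through the alternatives. With no filter seq6725 was at -0.0145 and seq6928 at -0.0014. Leaving out 1 library, seq6725 ran from -0.40 to 0.66, seq1537 from -0.42 to 0.91 and seq6928 from -0.0031 to 0.27. Of all alternatives to the named fold changes, 261 kept their side of the threshold, 130 lost the call, 2 gained one and 13 changed sign. The TMM factors of the oxidized control libraries were 7.05 and 7.23, against 0.307 to 0.886 in the other libraries. Depth limits the members with few counts: between 62 and 117 of the 295 had fewer than 10 in a library.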

Other observations

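Of the members, 96 are 1 substitution away from a more abundant member of the same length, and in 22 of them the first base differs. The median first-base variant had 0.485% and 0.746% of the counts of its more abundant member in non-oxidized and 1.71% and 1.42% in oxidized control RNA, and 0.733% and 1% before and 1.51% and 1.1% after oxidation with the methyltransferase. The highest was between 44.2% and 89.8% in the 8 libraries. The substitutions were T1C in 6, C1T and G1T in 5 each, A1G and G1A in 2 each, and T1A and T1G in 1 each. With oxidation of control RNA 10 of the 22 were called higher (45.5%, median log2 fold change 2.10), against 10 of 73 tested variants at other positions (13.7%, median 0.43), 18 of 190 members with no such relative (9.47%, median 0.13) and 18.4% of all sequences tested. This grouping was chosen after the values were seen and was not tested. The listing keeps a rare variant only if the oxidized methyltransferase libraries hold it. The percent of variants called thus cannot be compared evenly with that of more abundant members.

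A form of tRNA-Asp with A in place of G at base 56 of the 75-nt sequence (G56A) was listed for 25 fragments. It held 3.75% and 5.20% of its counts plus those of the main form in non-oxidized control, 5.56% and 6.63% in oxidized control, 5.29% and 5.93% in non-oxidized methyltransferase and 5.44% and 6.36% in oxidized methyltransferase RNA.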
